A study of Mus musculus with 2 samples.

Results

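Toll-like receptors are membrane proteins with which immune and some epithelial cells sense microbial lipids, proteins and nucleic acids. A ligand brings a pair of receptor chains together, and their cytoplasmic TIR domains then recruit adapter proteins, of which Myd88 serves every receptor described here except Tlr3. In lung, macrophages, dendritic cells, neutrophils, endothelium and epithelium carry different sets of these receptors, which face inhaled material. The genes described are Tlr1 to Tlr9 and Myd88, 10 of the 43346 gene rows of the deposited tables. They were taken by symbol and passed no filter on measured values, but earlier results of these data were known when they were chosen. All 10 had a row in both libraries, together with 29 annotated transcripts.

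The material was whole lung of 1 adult female C57BL/6J mouse, 10 weeks old, for which the labels name no mutation and no treatment. From it polyadenylated RNA was sequenced. The 2 libraries are technical replicates 1 and 2 of biological replicate 1. Replicate 2 was made later than replicate 1, and the labels do not say whether both came from 1 RNA extraction. The deposited tables held 16104442 estimated reads (expected counts) for replicate 1 and 17110882 for replicate 2. There is 1 group, so the only comparison the design allows is between these libraries. Their difference measures repeatability, carries no p-value, and shows nothing about variation between animals.

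Levels are given as TPM (transcript abundance per 1000000 transcripts), which corrects for length and allows genes to be set beside each other. Ratios between the libraries are of expected counts scaled by the trimmed mean of M values (TMM), replicate 2 over replicate 1. Their 95% intervals cover counting error only. A gene was counted as tested if its mean TPM was at least 1, and as apart if its ratio was over 2-fold. By that rule 67.5% of 14139 tested genes were apart, so the libraries differed broadly. Of the lowest decile of tested genes by the GC content of their annotated transcripts 92.0% were over 2-fold lower in replicate 2, and of the highest decile 91.5% were over 2-fold higher. The 6 lung epithelial markers were all above 0 in both libraries, with sums of 17886 TPM and 218946 TPM respectively, mostly from the club cell gene Scgb1a1 and the surfactant gene Sftpc.

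The receptors and Myd88 all end in a TIR domain, and its conserved box 2 gives a like-for-like window on how differently the same protein element is written in the members. The box 2 codons are in capitals below, with 36 bases of coding sequence on each side, from the GENCODE M21 transcripts on GRCm38 (the mm10 build of the files). Shown are the pair that shares reads (Tlr1 and Tlr6), a pair with more counts in replicate 1 (Tlr3 and Tlr7) and a pair with more counts in replicate 2 (Tlr9 and Myd88).
Tlr1, chr5:64925160-64925249, minus strand, exon 3 of 3: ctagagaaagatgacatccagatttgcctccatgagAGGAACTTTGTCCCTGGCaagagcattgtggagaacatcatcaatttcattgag
Tlr6, chr5:64953451-64953540, minus strand, exon 2 of 2: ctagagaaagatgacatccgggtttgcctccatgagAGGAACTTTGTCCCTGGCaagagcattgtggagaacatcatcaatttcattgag
Tlr3, chr8:45397432-45397521, minus strand, exon 6 of 7: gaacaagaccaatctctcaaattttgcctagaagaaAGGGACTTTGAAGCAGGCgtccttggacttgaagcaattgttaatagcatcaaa
Tlr7, chrX:167305642-167305731, minus strand, exon 3 of 3: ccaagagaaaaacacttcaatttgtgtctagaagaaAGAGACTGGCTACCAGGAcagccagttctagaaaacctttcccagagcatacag
Tlr9, chr9:106226206-106226295, plus strand, exon 2 of 2: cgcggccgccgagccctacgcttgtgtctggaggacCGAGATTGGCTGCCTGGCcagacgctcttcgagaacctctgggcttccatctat
Myd88, chr9:119338011-119338100, minus strand, exon 3 of 6: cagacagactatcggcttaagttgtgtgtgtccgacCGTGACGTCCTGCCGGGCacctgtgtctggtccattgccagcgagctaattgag
The GC content of these windows was 40% in Tlr3, 43.3% in Tlr7 and in Tlr1, 45.6% in Tlr6, 56.7% in Myd88 and 63.3% in Tlr9. In the members not printed it was 43.3% in Tlr8, 50% in Tlr2, 51.1% in Tlr5 and 52.2% in Tlr4. The Tlr4 window is thus richer in GC than its main transcript (39.4%), although Tlr4 had more counts in replicate 1. Since the printed pairs were picked by direction, their windows do not stand for all members. The Tlr1 and Tlr6 windows differed at 2 positions, A20G and A22G, with the Tlr1 base first and positions counted from the 5′ end of the window. Their box 2 codons were identical, and so was everything downstream of them in the window.

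Summed over the 9 receptors, the level was 92.6 TPM in replicate 1 and 29.4 TPM in replicate 2, whereas Myd88 alone was at 8.04 and 33.3 TPM. The ratio of Myd88 to the receptor sum was therefore 0.0868 in replicate 1 and 1.13 in replicate 2. Of the 10 members, 8 reached the mean level for testing. Of these, 5 were over 2-fold lower in replicate 2 (Tlr1, Tlr3, Tlr4, Tlr7 and Tlr8), against 28.2% of all tested genes, and 1 was over 2-fold higher (Myd88), against 39.3%. Tlr2 and Tlr6 lay within 2-fold. With total-count scaling, or with a prior of 5 counts in place of 0.5, 4 members were lower, since Tlr1 left the count, and Myd88 was higher throughout. The median log2 ratio of the 8 was -1.42, beside 0.19 for all tested genes.

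**Figure D1:**
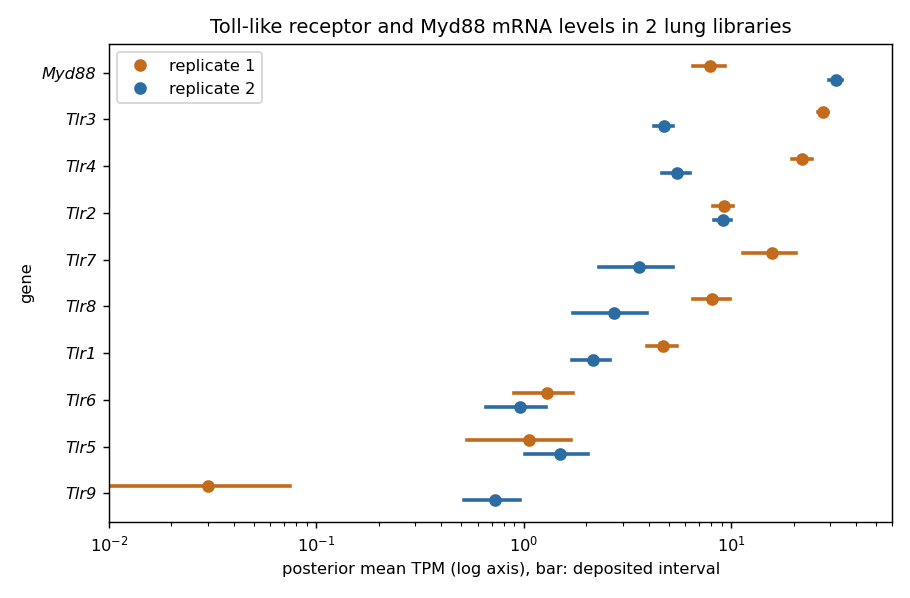
Level of each gene as the quantifier's posterior mean TPM, on a log axis, in replicate 1 and replicate 2, with its deposited interval as a bar (the bar of Tlr9 in replicate 1 runs past the left edge). Tlr3, Tlr4 and Tlr7 lead in replicate 1, and Myd88 and Tlr2 lead in replicate 2. Only Tlr2, Tlr5 and Tlr6 have intervals that overlap between the libraries. The share of all genes with overlapping intervals was not computed, and 67.5% of tested genes were over 2-fold apart.

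The cell-surface receptors recognise lipids and proteins. Tlr4 (ENSMUSG00000039005.9, 4:66827584-66930284, plus strand), the receptor for lipopolysaccharide, had 870 counts in replicate 1 and 312 in replicate 2, or 23.2 and 5.29 TPM. Its scaled ratio was 3.55-fold lower in replicate 2 (interval 3.12 to 4.06). The deposited intervals for its level, 19.6 to 24.6 and 4.63 to 6.37 TPM, did not overlap, and Tlr4 was the most abundant surface receptor in replicate 1. Tlr2 (ENSMUSG00000027995.10, 3:83836272-83841767, minus strand), the common partner in lipopeptide recognition, had 314 and 429 counts, or 9.91 and 9.60 TPM. Its ratio was 1.07 (interval 0.925 to 1.24), and its mean level of 9.76 TPM had an SD of 0.219 (n = 2 technical replicates), the smallest relative spread of the 10. Tlr2 made up 10.7% of the receptor TPM in replicate 1 and 32.7% in replicate 2, while its own level was within 2-fold.

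Tlr1 and Tlr6 each pair with Tlr2, for triacyl and diacyl lipopeptides respectively. Tlr1 (ENSMUSG00000044827.6, 5:64924679-64933563, minus strand) had 139.96 and 88.17 expected counts, or 5.06 and 2.26 TPM. It was 2.03-fold lower in replicate 2 (interval 1.54 to 2.68), so counting error alone spans the 2-fold line, and scaling by total counts put it within 2-fold (log2 ratio -0.75). Tlr6 (ENSMUSG00000051498.4, 5:64952031-64960097, minus strand) had 37.04 and 37.83 expected counts, or 1.37 and 0.99 TPM, with a ratio of 0.806 (interval 0.499 to 1.30). Tlr5 (ENSMUSG00000079164.4, 1:182954788-182976044, plus strand), the flagellin receptor, had 21 and 55 counts, or 0.69 and 1.22 TPM. Its ratio was 2.06 (interval 1.22 to 3.58), its level intervals of 0.534 to 1.70 and 1.02 to 2.05 TPM overlapped, and its mean of 0.955 TPM was under the level for testing. Tlr5 was thus the surface receptor with the fewest counts in replicate 1, and its ratio was within 2-fold with DESeq2 size factors (log2 ratio 0.97), a prior of 5 counts (0.86), the ratio of TPM (0.74) and the GC trend described below subtracted (0.47).

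The endosomal receptors recognise nucleic acids. Tlr3 (ENSMUSG00000031639.7, 8:45395665-45411080, minus strand), which senses double-stranded RNA and signals through Ticam1, had 1332 counts in replicate 1, more than any other member, and 324 in replicate 2. Its level was 30.03 and 4.97 TPM, and its ratio was 5.24-fold lower in replicate 2 (interval 4.64 to 5.93), the furthest below 1 among the members. Tlr7 (ENSMUSG00000044583.9, X:167304929-167330558, minus strand) and Tlr8 (ENSMUSG00000040522.5, X:167242696-167264329, minus strand), which sense single-stranded RNA, are neighbours on the X chromosome with 40599 bases between them. Tlr7 had 404 and 135 counts, or 14.99 and 2.38 TPM, and was 3.81-fold lower in replicate 2 (interval 3.13 to 4.67). Tlr8 had 245 and 80 counts, or 7.37 and 1.93 TPM, and was 3.90-fold lower (interval 3.02 to 5.09). The interval of Tlr7 lies inside that of Tlr8.

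Tlr9 (ENSMUSG00000045322.10, 9:106222598-106226883, plus strand), which senses unmethylated CpG DNA, had 0 counts in replicate 1 and 39 in replicate 2, or 0 and 0.75 TPM. A count of 0 allows up to 3 counts, which is 0.186 counts per 1000000 in replicate 1. With TMM scaling, as for the other ratios, and 3 counts set in place of the 0, Tlr9 was 10.2-fold higher in replicate 2. That value leaves out the counting error of the 39 counts. The exact interval on the split of 0 and 39 counts has a lower bound of 7.91-fold. The mean of 0.375 TPM was under the level for testing, so Tlr9 is outside the counts above. As a group the 4 endosomal receptors held 56.6% of the receptor TPM in replicate 1 and 34.1% in replicate 2. Their summed counts were 4.37-fold lower in replicate 2 (interval 3.98 to 4.80), and those of the 5 surface receptors 1.91-fold lower (interval 1.76 to 2.08). These intervals, which cover counting error only, do not overlap, with Tlr3 giving 1332 of the 1981 endosomal counts in replicate 1. The classes were mixed. Among surface receptors Tlr4 was 3.55-fold lower, near Tlr7 (3.81-fold) and Tlr8 (3.90-fold), and Tlr2 was within 2-fold. Among endosomal receptors Tlr9 was higher. Whether the place of the receptor in the cell played a part was not tested.

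Myd88 (ENSMUSG00000032508.8, 9:119335934-119341411, minus strand), the shared adapter, had 160 counts in replicate 1 and 936 in replicate 2, or 8.04 and 33.3 TPM. Its ratio was 4.59-fold higher in replicate 2 (interval 3.88 to 5.46), the opposite direction from the 5 receptors over 2-fold lower. The 5′ end of Myd88 overlaps Acaa1a, a peroxisomal thiolase gene on the other strand, over 290 exonic bases. Acaa1a had 28 and 2467.75 expected counts, 69.2-fold higher in replicate 2. Whether the counting used strand is not given in the sources used here, so reads from the overlap cannot be assigned to one gene or the other with certainty, and their part in the Myd88 ratio was not tested. Tlr3 also overlaps an antisense gene, Gm45542, over 381 exonic bases, for which no count is used here.

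Ordered by mean level over the libraries, the members ran from Myd88 (20.7 ± 17.9 TPM, SD, n = 2 technical replicates) through Tlr3 (17.5 ± 17.7), Tlr4 (14.2 ± 12.7), Tlr2 (9.76 ± 0.219), Tlr7 (8.69 ± 8.92), Tlr8 (4.65 ± 3.85), Tlr1 (3.66 ± 1.98), Tlr6 (1.18 ± 0.269) and Tlr5 (0.955 ± 0.375) to Tlr9 (0.375 ± 0.530). Of the 9 neighbouring pairs in that order, 8 had ranges that overlapped. The exception was Tlr1 above Tlr6. The order inside each library was not the same either: Tlr3, Tlr4, Tlr7 and Tlr2 were the 4 highest in replicate 1, and Myd88, Tlr2, Tlr4 and Tlr3 in replicate 2. At or above 1 TPM were 8 members in each library, and 7 in both. Tlr9 was the lowest member in both.

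Genes of different GC content differed between the libraries in different directions, so each member is given beside the tested genes of its own decile. Tlr4, Tlr7 and Tlr8 are in the lowest decile of tested genes by GC content (42.2%, 41.6% and 42.2% over their annotated transcripts), where the median log2 ratio was -1.92 and 92.0% of genes were over 2-fold lower. Their own log2 ratios were -1.83, -1.93 and -1.96, near that median. Tlr2, at 49.3% GC, had a log2 ratio of 0.10 in a GC decile whose median was -0.03. Tlr1 and Tlr6, at 45.5% and 45.8%, had -1.02 and -0.31 beside a median of -0.94, with 46.8% of genes there over 2-fold lower. Tlr5, at 50.9% and below the level for testing, had 1.02 beside a median of 0.70. Tlr9, at 56.2% and also below that level, lies where the median was 3.61 and 88.1% of genes were over 2-fold higher. Most genes of its composition were thus higher in replicate 2, as Tlr9 was. Its own log2 ratio was 5.95, above that median, and 2.73 with the GC trend described below subtracted. That value rests on the prior of 0.5 counts beside 0 counts in replicate 1. With a prior of 5 counts it was 2.79, below the median, so its distance from genes of like composition is not settled.

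By the unweighted mean GC content of all their M21 transcripts, Tlr3 and Myd88 lay further from genes of like composition than the other tested members. M21 holds 9 transcripts of Tlr3, some of them absent from the deposited tables, and 3 of Myd88, some with few or no counts. This placement therefore takes in transcripts that carried little or nothing of the gene, and it changes with weighting, as given below. Tlr3, at 43.5% GC, had a log2 ratio of -2.39 where the median of its decile was -1.38 and 71.6% of genes were over 2-fold lower. Myd88, at 57.0% GC, had a log2 ratio of 2.20 where the median was 3.61 and where 88.1% of genes were over 2-fold higher. After a smooth trend on GC content was subtracted, Myd88 was at -1.45, Tlr3 at -0.98, and the other 6 tested members between -0.34 and 0.64. By that measure no member was over 2-fold higher and 1 (Myd88) was over 2-fold lower, beside 22.6% and 20.5% of genes.

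**Figure D2:**
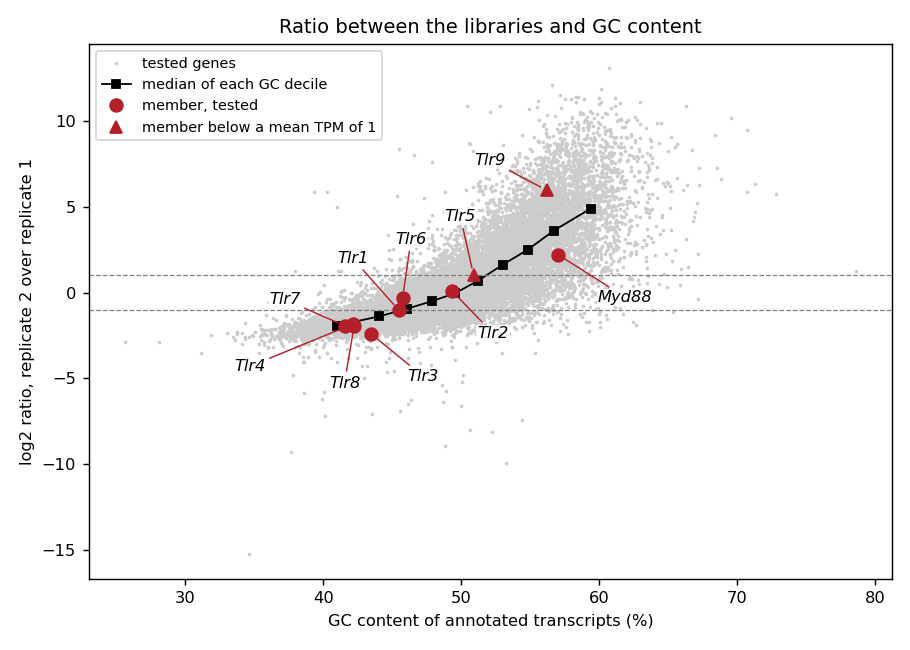
Log2 ratio of replicate 2 over replicate 1 against GC content for tested genes (grey), with the median of each decile by GC content (black squares), the tested members (circles) and the members below a mean of 1 TPM (triangles). Tlr4, Tlr7 and Tlr8 sit by the lowest median, while Myd88 lies below the median of its decile and Tlr3 below that of its own. Dashed lines mark 2-fold, and Tlr9, with 0 counts in replicate 1, is placed by the prior of 0.5 counts.

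The results for Myd88 and Tlr3 depend on which transcripts define their composition. Weighted by transcript TPM the GC content of Myd88 is 53.6%. With a trend on that measure its log2 ratio after subtraction was 0.19, with all 8 tested members within 2-fold. With a trend on the GC-poorest windows of 180 bases the log2 ratio of Myd88 was -2.52. For Tlr3 the weighted GC content is 40.1%. Its log2 ratio was -0.48 with the weighted trend and -1.14 with the window trend. The direction of the raw Myd88 ratio held under each scaling of the counts, whereas its position against genes of like composition did not keep one sign. These window and weighting choices were made after seeing the data.

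Composition differed along the genes as well as between them. The main transcript of Tlr4 was 39.4% GC and had 56.9% of its 180-base windows under 40% GC, the most of the 10. Tlr8 had 51.0% of its windows there, Tlr3 46.8% and Tlr7 45.6%. Tlr1 had 20.3% and Tlr6 11.7%, and Tlr2 3.87%. Myd88, Tlr5 and Tlr9 had 1.12%, 0.662% and 0. At the third codon position, where most changes leave the protein alone, GC content ran from 44.2% in Tlr4 to 72.5% in Tlr9, with 70.9% in Myd88. Tlr7 and Tlr9, which are 37.4% identical as proteins, thus stand at opposite ends, at 45.0% and 72.5%.

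**Figure D3:**
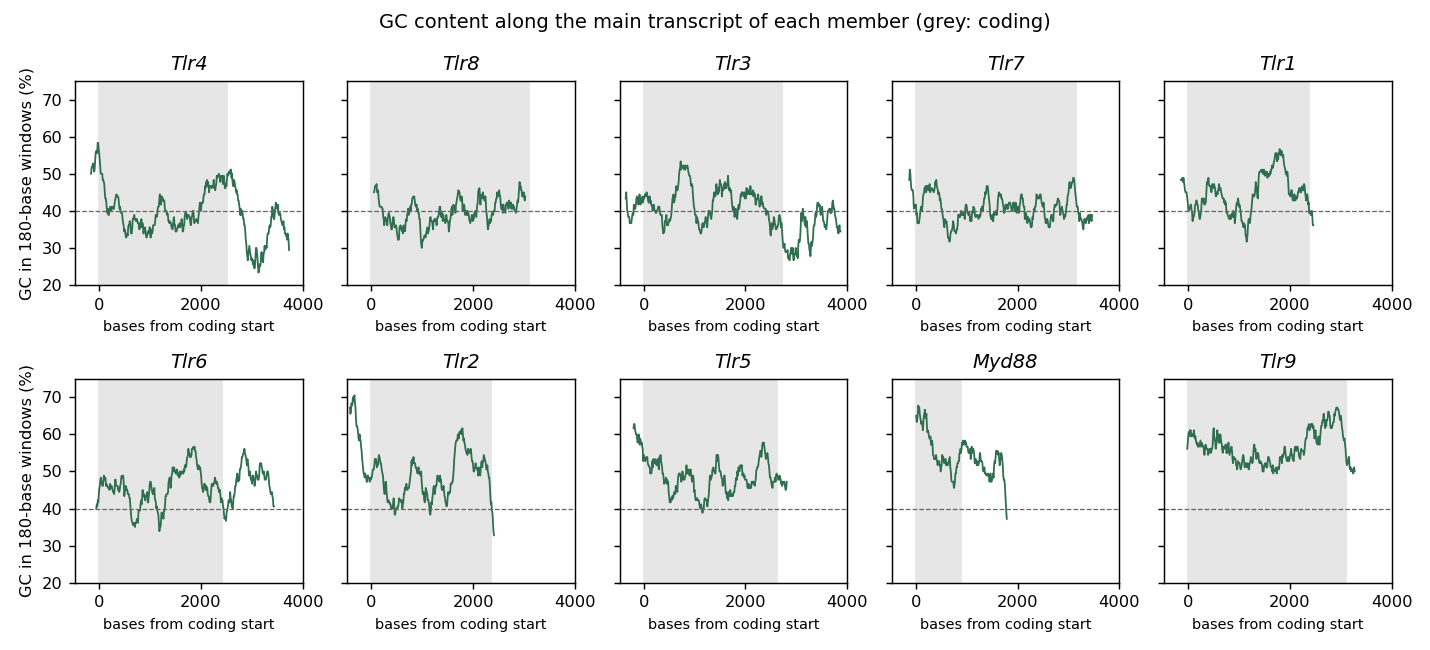
GC content in windows of 180 bases along the main transcript of each member, against the distance of the window's centre from the coding start in bases, with the coding part in grey. Tlr4, Tlr8, Tlr3 and Tlr7 run below 40% (dashed line) over long stretches, and Tlr9 stays above it throughout.

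Tlr1 and Tlr6 were the 1 pair of the 45 possible pairs whose transcripts shared any stretch of 100 bases. They share 259 such words, which are 9.65% of those of Tlr1 and 7.24% of those of Tlr6, and the same pair was alone at word lengths of 36, 50 and 75 bases. The longest identical run was 229 bases, from coding base 1468 of 2385 in Tlr1 and 1507 of 2418 in Tlr6. It lies before the box 2 windows printed above, which are themselves nearly the same. The proteins are 66.5% identical over their length, and 87.0% over the last 210 residues that hold the TIR domain. The next closest pairs were Tlr7 with Tlr8 at 43.9%, and Tlr7 with Tlr9.

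That likeness showed in the counts. Tlr1 and Tlr6 were the only members with expected counts that were not whole numbers, and their sums were whole in both libraries, 177 in replicate 1 and 126 in replicate 2 (tolerance 0.005). Such fractions arise where a read that matches both genes is divided between them. Tlr1 received 79.1% of the sum in replicate 1 (Clopper-Pearson interval 72.4% to 84.8%) and 69.8% in replicate 2 (61.0% to 77.7%). The shares overlap in their intervals. Their sum, which does not rest on the division, was 1.79-fold lower in replicate 2 (interval 1.42 to 2.27), so the Tlr1 and Tlr6 values taken singly are uncertain.

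At the level of transcripts, short models with few counts weighed on some genes. Of the 29 annotated transcripts, 17 were above 0 in replicate 1, 16 in replicate 2, and 8 in neither. The coding transcript Tlr7-201 (3776 bases) had 352.13 counts in replicate 1 and 135 in replicate 2, or 8.76 and 2.38 TPM. The short noncoding transcript Tlr7-206 (261 bases) had 5 counts in replicate 1, which at an effective length of 88.3 bases were worth 5.07 TPM. So 1.24% of the counts of Tlr7 made up 33.8% of its TPM in replicate 1, and 0 in replicate 2. Without Tlr7-206 the level of Tlr7 in replicate 1 would be 9.92 TPM in place of 14.99. The TPM of Tlr7 was 6.30-fold lower in replicate 2, beside 3.81-fold for its scaled counts. By the quantifier's posterior means Tlr7-206 held 35.8% in replicate 1 and 19.0% in replicate 2, and Tlr7-201 46.9% and 54.2%.

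Tlr3 has a pair of coding transcripts that are nearly as long as each other. Tlr3-201 had 719.55 counts in replicate 1 and 314.06 in replicate 2, and held 51.7% and 96.6% of the gene. Tlr3-202 had 612.45 and 9.94 counts, and held 48.3% and 3.36%. The transcripts were near each other in replicate 1 and far apart in replicate 2, and the posterior mean share of Tlr3-202 was 46.9% and 6.70%. For Tlr4 the coding transcript Tlr4-201 held 84.3% and 95.4%, and the short noncoding Tlr4-204 (646 bases) 15.7% and 4.63%, from 19.06 and 1.79 counts. For Tlr5 the assignment switched: Tlr5-204 held 80.7% in replicate 1 and 0 in replicate 2, while Tlr5-201 held 19.3% and 92.7%, but the gene had only 21 and 55 counts. By posterior means the shares were less extreme, 33.9% and 11.3% for Tlr5-204 and 22.9% and 60.3% for Tlr5-201. Tlr8-201 held 65.2% and 59.5% of Tlr8, or 51.6% and 33.3% by posterior means. Myd88-201 held 100% and 99.0% of Myd88, with 12.20 counts on the retained-intron transcript Myd88-203 in replicate 2. Tlr1, Tlr2, Tlr6 and Tlr9 have 1 transcript each in the deposited tables.

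**Figure D4:**
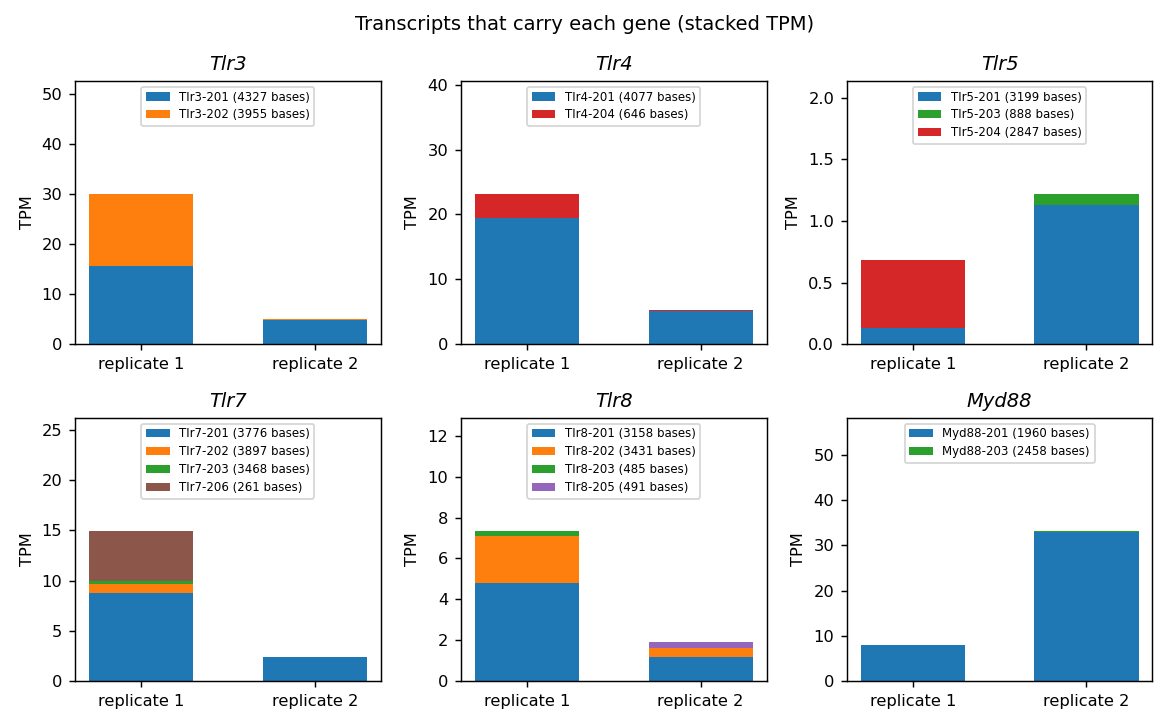
TPM of each transcript, stacked to the level of its gene, in replicate 1 and replicate 2, for the members with more than 1 annotated transcript; each panel has its own axis. The leading transcript differs between the libraries for Tlr5, Tlr3-202 and Tlr7-206 are large parts of their genes in replicate 1, and Myd88 rests on Myd88-201 in both libraries.

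The other genes of the pathway were taken from 9 lists with 74 genes, of which 66 were tested. Of these 22 were over 2-fold higher in replicate 2 and 20 lower, beside 39.3% and 28.2% of all tested genes. Both shares lay near the background, with a median log2 ratio of -0.18. The same background applies to each list below, and with the GC trend subtracted it was 22.6% and 20.5%. Among the other mouse receptors, Tlr13, which senses bacterial ribosomal RNA, was at 5.74 and 2.27 TPM, 2.28-fold lower, and the related Cd180 at 4.23 and 2.36 TPM within 2-fold. Tlr11 was at 0.33 and 0.19 TPM, and Tlr12 had 0 and 47 counts, so neither reached the level for testing. Tlr12 resembled Tlr9 in being at 0 in replicate 1. Both lie in the GC decile where 88.1% of tested genes were over 2-fold higher.

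The proteins that work beside the receptors split. Of 5 co-receptors and ligand-transfer genes, 2 were over 2-fold lower in replicate 2. Ly96, which holds lipopolysaccharide on Tlr4, was at 56.7 and 11.5 TPM, 4.56-fold lower, close to Tlr4 itself. Cd36, a scavenger receptor that helps Tlr2 with Tlr6, was at 2232 and 507 TPM, 4.04-fold lower. Cd14, which passes lipopolysaccharide to Tlr4 and Ly96, was at 10.4 and 35.9 TPM, 3.81-fold higher, and Lbp was 7.94-fold higher. Ly86, a partner of Cd180, lay within 2-fold at 56.4 and 37.6 TPM. Of the lipopolysaccharide receptor complex, Tlr4 and Ly96 were thus lower and Cd14 higher, at 42.2%, 40.4% and 53.6% GC. With the GC trend subtracted all 3 were within 2-fold, at -0.20, -0.28 and 0.06.

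Of 6 chaperone and trafficking genes, 3 were over 2-fold higher and 1 lower. Unc93b1, which carries Tlr3, Tlr7 and Tlr9 to endosomes, had 19 and 1502 counts, 62.0-fold higher in replicate 2, while Tlr3 and Tlr7 were lower there. Cnpy3, which assists Hsp90b1, was 91.2-fold higher, at 0.82 and 36.04 TPM, and Slc15a4 was 8.41-fold higher. With the GC trend subtracted these 3 were still over 2-fold higher, Unc93b1 by 2.37 on the log2 scale. Hsp90b1, the chaperone that folds most of these receptors, was at 1034 and 301 TPM, 3.10-fold lower, and Cnpy4 was within 2-fold at 14.3 and 15.1 TPM. Of the 4 tested adapters besides Myd88, Ticam1, the adapter of Tlr3, was 43.9-fold higher and Pik3ap1 15.8-fold higher. Tirap, the bridge from Tlr2 and Tlr4 to Myd88, was at 5.92 and 3.15 TPM and Ticam2 at 1.49 and 1.23 TPM, both within 2-fold, and Sarm1 was below 1 TPM in both libraries. After subtraction of the GC trend 3 adapters (Pik3ap1, Ticam1 and Ticam2) were over 2-fold higher and Tirap was lower, at -2.78 on the log2 scale.

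Below the adapters, 17 kinase and ubiquitin-ligase genes gave 3 over 2-fold higher (Irak2, Tab1 and Ikbke) and 6 lower, with a median of -0.33. Ube2n was at 110.2 and 32.8 TPM, Chuk at 81.0 and 20.4 TPM and Tab2 at 66.1 and 24.8 TPM, all 3 over 2-fold lower, and Irak1 was within 2-fold at 28.8 and 24.1 TPM. After subtraction of the GC trend 2 were over 2-fold higher and 5 lower, with Irak2 going from a log2 ratio of 1.12 to -1.47 and Irak1 from -0.24 to -3.71. The 9 transcription factors gave the most one-sided count, with 8 over 2-fold higher. Rela, a subunit of NF-kB, was at 1.34 and 43.8 TPM, 36.1-fold higher, Irf3 15.3-fold, Irf7 6.48-fold and Nfkb1 2.77-fold higher. Rel was the 1 factor over 2-fold lower. The median GC content of this list was 56.6%, and with the GC trend subtracted 1 factor was over 2-fold higher and 1 lower, so the one-sided count was not kept.

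Regulators listed as inhibitors gave 3 over 2-fold higher (Tnip1, Sigirr and Socs1), 4 lower (Peli1, Nfkbiz, Cyld and Il1rl1) and 4 within. Not all genes of that list act only as inhibitors, Peli1 and Nfkbiz among them. Nfkbia, the inhibitor that holds Rela in the cytoplasm, was at 65.1 and 106.4 TPM, and Tollip at 28.1 and 33.7 TPM, both within 2-fold. Of 12 cytokine and chemokine targets 7 were tested. Il1b was at 20.6 and 18.8 TPM with a ratio of 0.993, Ptgs2, the inducible cyclooxygenase, was over 2-fold lower at 17.6 and 3.18 TPM, and Il6 was 4.92-fold lower on 27 and 7 counts. Cxcl10, at 5.08 and 2.78 TPM, and Ccl3, at 2.13 and 1.41 TPM, were within 2-fold. Ccl4 was 2.22-fold higher on 6 and 17 counts, with an interval of 0.836 to 6.89 that includes a ratio of 1. Cxcl2, Il10, Il12b and Ifnb1 were below 1 TPM in both libraries, Ifnb1 at 0 counts in both. Of 5 interleukin 1 and 18 receptor genes, most of which also signal through Myd88, Il18r1, Il1rap and Il1r1 were 2.47-fold, 4.35-fold and 2.12-fold lower. Il18rap was within 2-fold at 3.67 and 2.06 TPM. With the GC trend subtracted 1 of these 5 was over 2-fold higher and 1 lower.

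**Figure D5:**
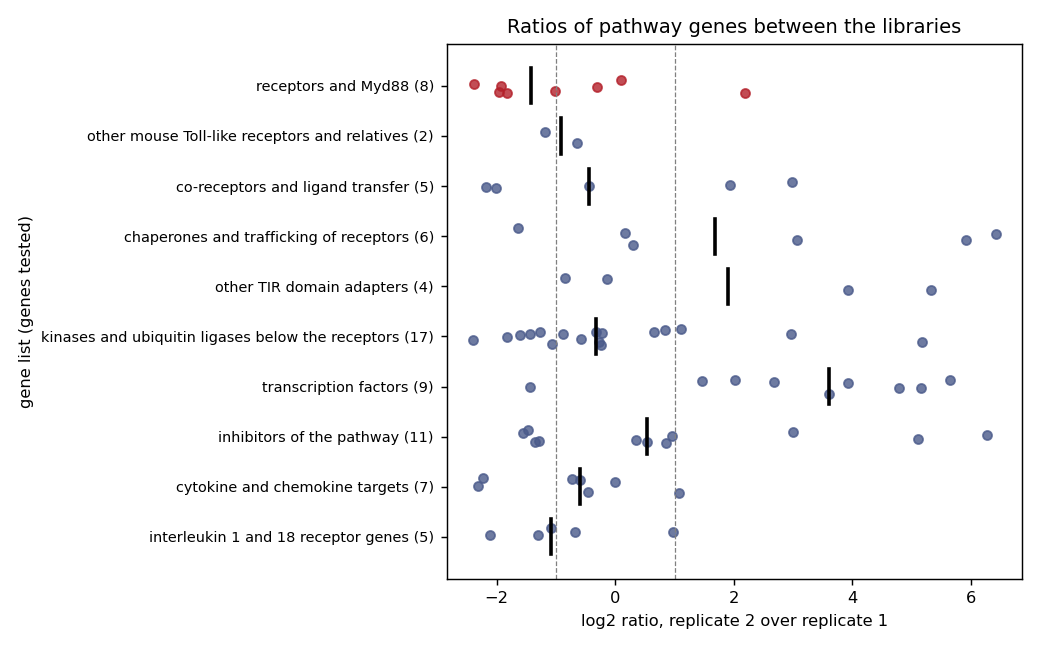
Log2 ratio of replicate 2 over replicate 1 for the tested members (red) and the tested genes of each of the 9 pathway lists (blue), 1 point per gene, with the median as a bar and dashed lines at 2-fold. The members have 5 lower and 1 higher, and the transcription factors 8 higher and 1 lower.

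Marker sums of the cell types that carry these receptors did not all go the way of the receptors. For the counts below, the shares over all tested genes were 39.3% higher and 28.2% lower. With the GC trend subtracted these shares were 22.6% and 20.5%. In lists this small, a count near those shares is no result about the cell type. Alveolar macrophage markers had sums of 2560 TPM in the first library and 1313 TPM in the second, with 1 of 6 over 2-fold higher and 2 lower; the most abundant, Chil3 (1766 and 941 TPM) and Ear2 (627 and 306 TPM), were within 2-fold. The sum was 1163 and 752 TPM for neutrophil markers, with 1 of 5 tested higher and 1 lower, S100a8 being 2.45-fold lower and S100a9 within 2-fold. Monocyte and interstitial macrophage markers summed to 129 and 330 TPM, with 4 of 8 higher and 1 lower, and C1qa and C1qb gave 3.95 and 0.89 TPM in replicate 1 and 97.05 and 84.7 TPM in replicate 2. B cell markers summed to 229 and 728 TPM, with 5 of 6 higher and 1 lower, Ighm by 4.44-fold and Cd79b by 4.90-fold higher. Those of plasmacytoid dendritic cells summed to 89.2 and 368 TPM, with 2 of 5 higher and 1 lower and a median log2 ratio of -0.50. The larger sum came from Bst2 (5.35 and 259.8 TPM) and Cox6a2 (0.37 and 82.1 TPM), while Tcf4, Siglech and Ccr9 had less TPM in replicate 2. Conventional dendritic cell markers summed to 42.7 and 47.7 TPM, with 3 of 5 tested higher and 0 lower, Ccr7 by 5.14-fold higher and Cd209a within 2-fold. Endothelial markers summed to 280 and 1085 TPM, with 3 of 5 higher and 0 lower, among them Cldn5 (0.43 and 606.7 TPM) and Pecam1 (74.4 and 219 TPM). Of the lung epithelial markers, whose sums are given above, 5 of 6 were higher and 0 lower. With the GC trend subtracted the counts higher and lower were 0 and 2 for alveolar macrophages, 2 and 0 for neutrophils, 3 and 0 for monocytes and interstitial macrophages, 2 and 0 for B cells, 2 and 1 for plasmacytoid and 0 and 0 for conventional dendritic cells. For endothelial markers these counts were 2 and 1, and for lung epithelial markers 5 and 1. No marker of these lists was at 0 in either library, and their part in the receptor ratios was not tested. In bulk lung, fewer cells of a type and less RNA per cell cannot be told apart.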

How the data were processed

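Polyadenylated RNA of whole lung from 1 mouse was sequenced in 2 technical replicates. Per the deposited description, the tables were made from transcriptome alignments to mm10 with annotation M4. Which aligner, quantifier and strand setting were used is not given in the sources used here. The authors deposited expected counts, TPM, FPKM and, for transcripts, the percent of the gene's abundance, for genes and transcripts of each library. The deposited bounds of the TPM intervals carry no stated level. The deposited posterior mean TPM is plotted and is an alternative for levels, and the deposited FPKM only served to check the order of the members. Rows that are no mouse gene (26345) summed to 0.

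Expected counts were rounded and scaled with TMM over all 43346 genes (edgeR 4.0.16, R 4.3.3; factors 0.913 and 1.095), with a prior of 0.5 counts. The tested genes are those whose TPM averaged 1 or more, and a ratio over 2-fold counted as apart. With 1 library on each side no p-value was computed. Intervals are exact Clopper-Pearson intervals at 95% on the split of counts, and cover counting error only, since no molecular identifiers are described. The floor for a count of 0 is 3 counts. The GC trend is a lowess fit (span 0.3) of the log2 ratio on GC content over 14067 genes. The deposited effective lengths imply mean fragments of 179 and 184 bases, for which windows of 180 bases were used. The labels give a size range of 350 to 450 for both libraries, and the difference was not resolved. Sequences and GC content come from GENCODE M21, in which 25 of the 29 transcripts have the length in the deposited tables. Unless weighting is named, the GC content of a gene is the unweighted mean over all its M21 transcripts, including any that are absent from the deposited tables. The ratio step was checked on simulated counts in which a small set of genes was changed, equally up and down, with no effect of GC content. That check does not cover libraries in which most genes differ, as they do here, so it says nothing about the scaling under that difference.

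The members and lists were chosen with earlier results of these data known. Named besides the members are the 4 most abundant genes of each pathway list and those below 1 TPM in both libraries. Of each marker list printed the 2 most abundant genes are named. Cox6a2, Siglech, Ccr9, Lbp, Slc15a4, Irak2, Tab1, Ikbke, Rel, Tnip1, Sigirr, Socs1, Cyld, Il1rl1, Il6 and Ccl4 were named after their values were seen.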

Additional observations from a re-analysis of the deposited data

How the results depend on the processing

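The counts of members and pathway genes over 2-fold apart depended on whether the libraries' difference in GC content was taken out. In the raw ratios 1 of 8 tested members was higher and 5 lower, and 22 of 66 pathway genes were higher and 20 lower. Of all 14139 tested genes, 39.3% were higher and 28.2% lower. With the GC trend subtracted it was 0 and 1 member and 14 and 11 pathway genes, beside 22.6% and 20.5% of genes. With the trend on 180-base windows it was 0 and 2 members and 14 and 8 genes, beside 2670 and 2474 of all tested. With the trend on TPM-weighted GC content it was 0 and 0 members and 7 and 7 genes, beside 2492 and 2302. Log2 ratios of members over 2-fold apart that changed sign were that of Myd88, at -1.45 with the GC trend and -2.52 with the window trend, and those of Tlr1 (0.14) and Tlr4 (0.18) with the TPM-weighted trend; the cause was not tested. Of the members within 2-fold, Tlr6 (-0.31) was at 0.64 with the GC trend and 0.57 with the TPM-weighted trend, and Tlr2 (0.10) at -0.05 with the ratio of TPM and -0.04 with the TPM-weighted trend. With no filter on TPM 3 of 10 members were higher, as Tlr5 and Tlr9 then joined Myd88, and 5 were lower. With a mean TPM of at least 10, fewer genes were tested. Then 1 of 3 members was higher and 2 lower, and 12 of 37 pathway genes were higher and 15 lower. The shares over all genes were not computed for these filters, so these counts are no result about the members or the pathway. Total-count scaling moved the median log2 ratio of all tested genes from 0.19 to 0.45, the ratio of TPM moved it to 0.01, DESeq2 size factors (version 1.42.0) and a prior of 5 counts to 0.15, and under these 4 the number of members lower was 4 or 5. The mean level of a member without either library is the value of the other library. Depth limits Tlr5, Tlr6 and Tlr9, which had at most 55 counts in a library, and 1 animal with 2 technical replicates says nothing of other animals.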
